A study of Rattus norvegicus with 16 samples.

Results

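The kainate receptor subunit genes were followed in the prefrontal cortex (PFC) of rats exposed to inescapable footshock (FS) and of controls. The members were all probe sets whose only gene symbol was Grik1, Grik2, Grik3, Grik4 or Grik5. Each gene had 1 probe set, so 5 genes were analysed of the tested 10423 genes (11352 probe sets), and all 5 passed the filter on low values, a mean above 4 over the 16 arrays. The series held 8 FS rats and 8 controls, each on its own Affymetrix Rat Gene 1.0 ST array. The rats were adult male Sprague–Dawley animals. FS rats received shocks of 0.8 mA in a session of 40 min, with 20 min of actual shock, and were killed right after it, whereas controls stayed undisturbed in the home cage. Handling, the shock chamber and the shocks therefore cannot be told apart. The whole PFC was dissected, and bulk tissue does not tell fewer cells of a type from less RNA per cell.

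Kainate receptors are glutamate-gated cation channels built from 4 subunits. They sit on both sides of the synapse, where they carry slow postsynaptic currents and tune the release of glutamate and GABA. Grik1, Grik2 and Grik3 encode the subunits GluK1 to GluK3, which can form channels on their own. Grik4 and Grik5 encode GluK4 and GluK5, which bind kainate with high affinity and need one of the other subunits to form a channel. In the forebrain GluK2 and GluK5 are common partners, GluK1 is known from interneurons, and Grik2 and Grik5 are also expressed in the striatum.

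The upstream sequences of Grik2 and Grik3 are shown because Grik2 had the strongest of the 5 correlations with the striatal markers described further on and Grik3 one of the weak ones, and because their windows lie wholly before the annotated gene. Each is the stretch of 250 bases before the RefSeq start (build GRCr8), read 5′ to 3′ on the gene's strand. Capitals mark the letters TGACG or their reverse complement, the half-site of the cAMP response element.
Grik2, chr20:54415284-54415533, minus strand: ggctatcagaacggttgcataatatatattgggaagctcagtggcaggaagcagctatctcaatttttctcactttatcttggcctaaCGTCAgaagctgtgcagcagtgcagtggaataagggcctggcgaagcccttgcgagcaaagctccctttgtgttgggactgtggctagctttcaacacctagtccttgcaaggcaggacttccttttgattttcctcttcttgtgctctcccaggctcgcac
Grik3, chr5:143052192-143052441, plus strand: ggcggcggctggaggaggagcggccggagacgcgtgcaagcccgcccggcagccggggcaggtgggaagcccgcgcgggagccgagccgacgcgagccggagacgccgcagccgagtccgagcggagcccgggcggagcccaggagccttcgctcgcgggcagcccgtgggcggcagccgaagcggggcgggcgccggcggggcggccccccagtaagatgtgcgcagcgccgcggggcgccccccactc
The Grik2 window held 1 half-site, at positions -162 to -158 from the start, and the windows of the other 4 genes held none. The windows of Grik1, Grik4 and Grik5 lay inside the annotated extent of the gene. Their counts therefore do not describe the sequence before the annotated gene. Over 33469 RefSeq promoters, 18.2% had a half-site in a window of this length. The full element (TGACGTCA, which contains the half-site, in 1.59% of promoters) and the AP-1 motif (TGANTCA, in 6.34%) were found in none of the 5 windows, both strands searched. The Grik2 window had a GC content of 49.6% and the Grik3 window of 81.6%, with a median of 51.2% over all promoters. A match of letters is a description and not evidence of a bound factor.

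Grik2 was the only subunit gene with a higher mean in FS rats, and Grik1, Grik3, Grik4 and Grik5 had lower means. No difference passed the adjusted threshold. With limma (Benjamini-Hochberg adjustment over all 11352 probe sets), 0 of the 5 genes had an adjusted p under 0.05, where the share over all probe sets was 0%. At an unadjusted p under 0.05 there was 1 of 5, Grik1, against 9.32% of all probe sets in either direction, 5.67% in the lower and 3.65% in the higher direction. The arrays of both groups overlapped for all 5 genes, and 0.0617% of probe sets had groups that did not overlap. The median difference of the 5 genes was -0.10 on the log2 scale, where that of all probe sets was -0.018 and 57.5% of them were lower in FS rats. The values are log2 expression after robust multi-array averaging (RMA), so a difference of 1 would be a doubling.

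Grik1 had the smallest unadjusted p of the family. In controls it ranged from 4.56 to 4.70 with a median of 4.64, and in FS rats from 4.35 to 4.68 with a median of 4.52. The groups overlapped, but 7 of 8 FS arrays were below the control mean and 6 of 8 were below the lowest control. FS replicates 4 and 5 were the exceptions, at 4.61 and 4.68, and FS replicate 2 was lowest. The difference was -0.11 ± 0.048 (SE, n = 8 per group), a fold-change of 0.926 (95% interval 0.864 to 0.993), with an adjusted p of 0.523 in limma. The unadjusted limma p was 0.0338. It was above 0.05 with the replicate number as a block (0.0507), with the striatal (0.116) or myelin (0.187) score included, and, from 0.0545 to 0.0724, without control replicate 1, 7 or 8 or FS replicate 2, 3 or 6. Nor was it under 0.05 with control replicate 6 and FS replicate 3 left out together. By exact two-sided permutation of the 16 arrays the p was 0.0157 before adjustment and 0.537 after adjustment over all probe sets. The SD was 0.051 in controls and 0.10 in FS rats, and 5.86% of probe sets varied as little or less within groups. Its mean over the 16 arrays, 4.58, was close to the filter of 4.

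Grik2, which encodes the subunit most widely used in forebrain kainate receptors, had the largest difference and the largest spread of the family. It ranged from 6.70 to 7.43 in controls (median 7.02) and from 6.89 to 7.63 in FS rats (median 7.27). FS replicates 8 and 3 were highest, at 7.63 and 7.53, and exceeded every control, whereas FS replicates 5, 7 and 1 lay below the control mean. The highest control was replicate 6 and the lowest replicate 4. The difference was 0.20 ± 0.12 (SE), a fold-change of 1.15 (95% interval 0.969 to 1.36), with an adjusted p of 0.563 in limma and an exact permutation p of 0.134 before adjustment. The interval spans 0, and its upper end allows a difference of 0.45. Without FS replicate 8 the difference was 0.15, and without control replicate 6 it was 0.26 (adjusted p = 0.282 in limma).

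Grik3, whose product needs high glutamate concentrations to open, overlapped fully between the groups. It ranged from 6.89 to 7.51 in controls (median 7.19) and from 6.94 to 7.27 in FS rats (median 7.13). No FS array lay outside the range of the controls, and 7 of 8 were below the control mean. The difference was -0.10 ± 0.075 (SE; 95% interval -0.26 to 0.059), with an adjusted p of 0.631 in limma. The control mean was set in part by replicates 4 and 8, the lowest and highest of all 16 arrays. Without control replicate 4 the difference was -0.15 (unadjusted p = 0.0421, adjusted p = 0.588 in limma), and without control replicate 8 it was -0.057.

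Grik4 and Grik5, the genes of the high-affinity subunits, were both lower on average in FS rats and both overlapped with controls. Grik4 ranged from 5.42 to 5.78 in controls (median 5.58) and from 5.18 to 5.82 in FS rats (median 5.43). FS replicates 3, 6 and 8 were below every control, whereas FS replicate 5 was the highest of all 16 arrays. The difference was -0.13 ± 0.086 (SE; 95% interval -0.31 to 0.055), with an adjusted p of 0.603 in limma. The SD was 0.22 in FS rats and 0.13 in controls. Grik5 ranged from 7.57 to 7.85 in controls (median 7.67) and from 7.46 to 7.81 in FS rats (median 7.59), and 6 of 8 FS arrays were below the control mean. Its difference of -0.077 ± 0.059 (SE; 95% interval -0.20 to 0.047) had an adjusted p of 0.636 in limma.

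**Figure D1:**
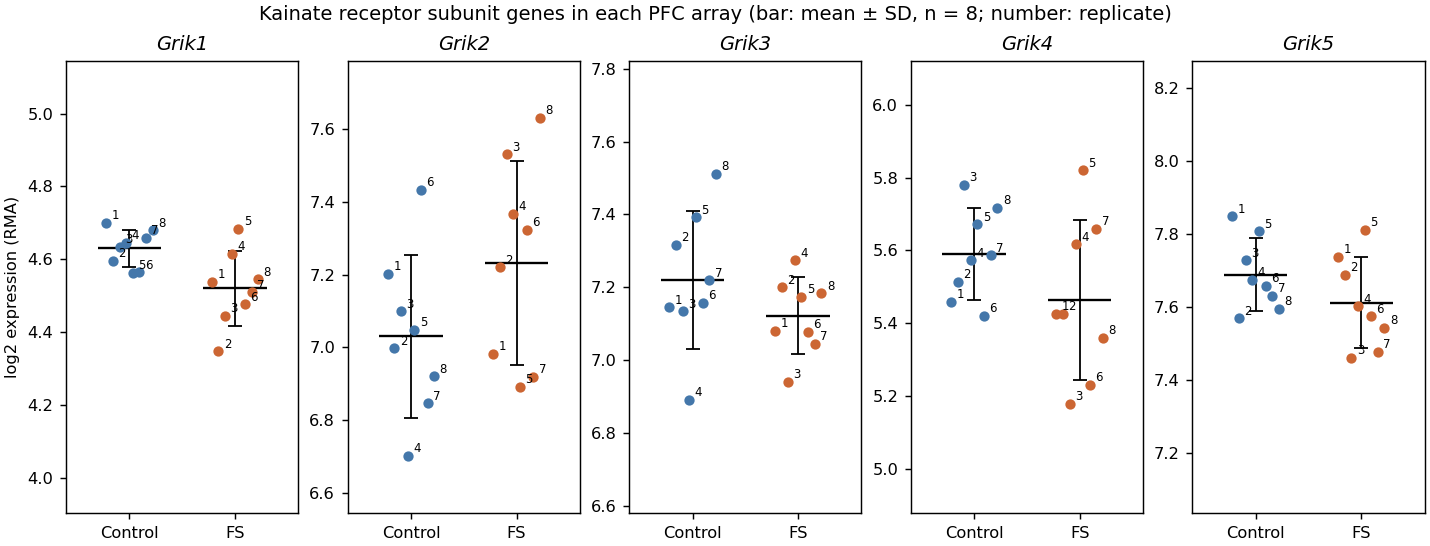
Log2 expression (RMA) of the 5 subunit genes in each array, with a panel per gene drawn over the same span of log2 units, controls in blue and FS rats in orange, the replicate number beside each point, and bars for the mean ± SD (n = 8). Grik2 spreads widest, from 6.70 to 7.63, and in Grik1 6 of 8 FS arrays lie below the lowest control.

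Correlations between the 5 genes from array to array went in both directions, and none passed after adjustment. Group means were subtracted from the values, and 10 pairs of genes were correlated over the 16 arrays. Pearson's r lay between -0.60 and 0.55, and none of the 10 pairs passed after adjustment over 30 relations, the 10 pairs and 20 relations with marker scores (permutation within groups, 100000 resamples). Grik2 and Grik4 were the most opposed, with r = -0.60 (permutation p = 0.0255, adjusted p = 0.153) while the rank correlation rho (Spearman) was -0.63 (permutation p = 0.0170, adjusted p = 0.0885). Their r was -0.41 in controls and -0.70 in FS rats, and without the 2 arrays farthest from the Grik2 median (FS replicates 8 and 3) it was -0.48 (permutation p = 0.0904). In controls without replicate 6 it was -0.031. Grik1 and Grik4 had the highest r, 0.55 (permutation p = 0.0643, adjusted p = 0.277; rho = 0.44, permutation p = 0.118, adjusted p = 0.443). It was 0.13 in controls (-0.21 without replicate 6) and 0.67 in FS rats, and 0.55 without FS replicates 2 and 3 (permutation p = 0.0808). Grik2 and Grik5, whose products often pair, had r = -0.21 (permutation p = 0.449, adjusted p = 0.642; rho = -0.16, permutation p = 0.585, adjusted p = 0.797), with 0.32 in controls (0.60 without replicate 6) and -0.55 in FS rats, and r was 0.042 without FS replicates 8 and 3.

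**Figure D2:**
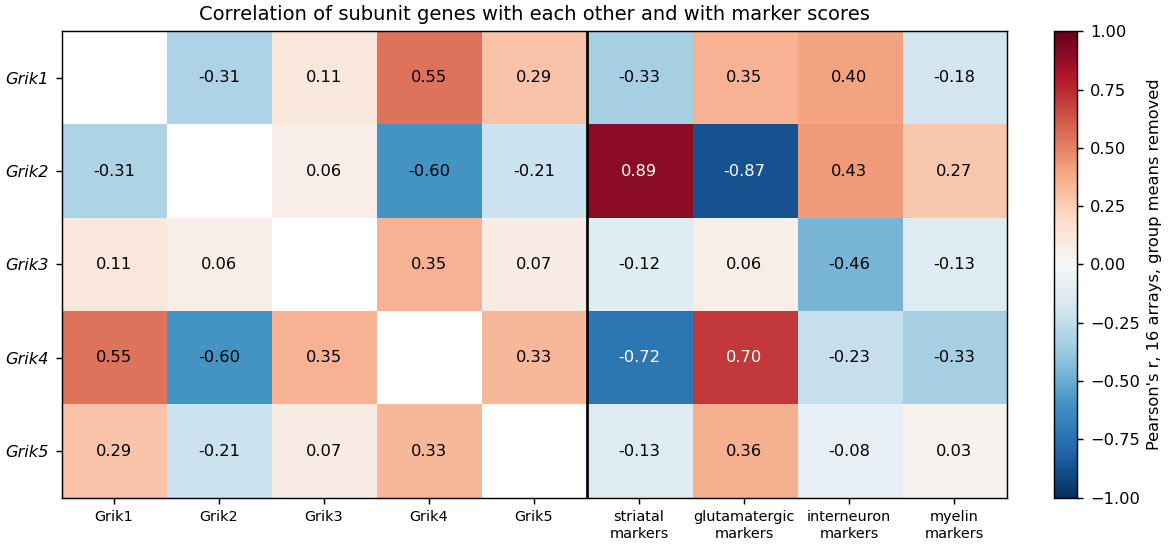
Pearson's r over 16 arrays, with group means removed, between the 5 subunit genes (left of the line) and between each gene and the scores of 4 marker lists (right of the line). Grik2 runs with striatal markers (0.89) and against glutamatergic markers (-0.87), and Grik4 the other way (-0.72 and 0.70).

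The level of Grik2 followed markers of striatal medium spiny neurons, the projection neurons of the neighbouring striatum. The cortical marker Slc17a7, the vesicular glutamate transporter gene of cortical excitatory neurons, lay between 9.48 and 11.01 in every array. Neurod6, another marker of cortical glutamatergic neurons, ranged from 6.57 to 8.65. The dopamine receptor genes Drd1 and Drd2, which define the striatal neurons, had very uneven values over the arrays, from 4.95 to 8.63 and from 4.63 to 8.68, and their lowest values were near the filter of 4. Of 16 listed striatal markers 14 were tested, and all 14 had positive differences, 3 of them at an unadjusted p under 0.05 and 0 after adjustment. The striatal score, their mean log2 deviation from the mean over the 16 arrays, ranged from -0.97 to 1.76 in controls and from -0.98 to 1.49 in FS rats (means -0.42 and 0.42). In the controls 6 arrays had scores from -0.97 to -0.67 and replicates 1 and 6 stood above them at 0.21 and 1.76.

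Over the 16 arrays Grik2 and the striatal score had r = 0.89 (permutation p = 1e-05, the smallest the resamples can give, adjusted p = 0.0003) and rho = 0.90 (permutation p = 2e-05, adjusted p = 0.0006). The relation was present in both groups, with r = 0.85 in controls and 0.95 in FS rats. In controls without replicate 6 it was 0.66 over 7 arrays, and over all arrays without control replicate 6 and FS replicate 3 it was 0.87 (permutation p = 0.00046). Grik2 was higher by 0.24 ± 0.034 (SE) for each unit of the score. All these points share an array and its normalisation. Of the tested genes, 1.99% had a larger absolute r with this score than Grik2, and the median absolute r over genes was 0.41. With the score as a covariate the group difference of Grik2 was -0.0013 ± 0.067 (SE, adjusted p = 1.00 in limma). Because FS rats also had the higher mean score, this fit divides a difference that both share.

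**Figure D3:**
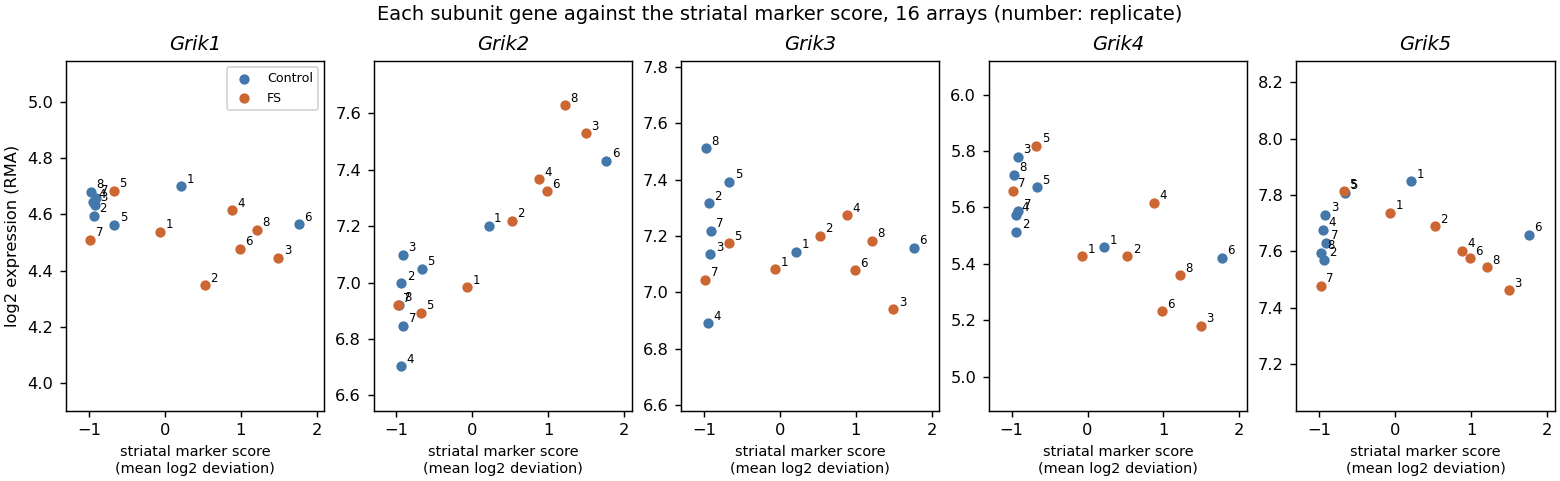
Log2 expression (RMA) of each subunit gene against the striatal marker score (mean log2 deviation) in 16 arrays, controls in blue and FS rats in orange, with replicate numbers. Grik2 climbs with the score in both groups, with values from 6.70 to 7.43 in controls and from 6.89 to 7.63 in FS rats. Grik4 falls, and Grik3 and Grik5 show r of -0.12 and -0.13.

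Grik4 ran against the same markers. Its r with the striatal score was -0.72 (permutation p = 0.00143, adjusted p = 0.0143) and rho was -0.78 (permutation p = 0.00078, adjusted p = 0.0078), with -0.69 in controls and -0.79 in FS rats. In controls without replicate 6 it was -0.56, and over all arrays without control replicate 6 and FS replicate 3 it was -0.69, which no longer passed after adjustment over the 30 relations (permutation p = 0.0246, adjusted p = 0.246). In the tested genes 15.7% had a larger absolute r with this score. FS replicates 3 and 6, with the lowest Grik4 values of 5.18 and 5.23, had scores of 1.49 and 0.98, and FS replicate 5, with the highest value of 5.82, had a score of -0.68. FS replicates 3 and 6 also had the highest scores of the meningeal fibroblast and smooth muscle markers, 1.62 and 1.26, where the other 14 arrays lay between -0.69 and 0.40, and the part of these cells in the low Grik4 values was not tested. With the score as a covariate the group difference of Grik4 was -0.010 ± 0.071 (SE, adjusted p = 0.999 in limma).

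Relations with the markers of cortical glutamatergic neurons were the reverse. Control replicate 6 and FS replicates 3 and 8 had the highest striatal scores, 1.76, 1.49 and 1.21. Their glutamatergic scores were the lowest, -0.89, -0.96 and -0.99. Relations with both scores are therefore not separate results. The correlation of the scores with each other was not computed. All 8 tested glutamatergic markers had negative differences (none at an unadjusted p under 0.05), and their score ranged from -0.89 to 0.53 in controls and from -0.99 to 0.38 in FS rats. Grik2 had r = -0.87 with this score (permutation p = 3e-05, adjusted p = 0.00045; rho = -0.82, permutation p = 0.00048, adjusted p = 0.0072), and r was -0.80 without FS replicates 8 and 3 (permutation p = 0.00088). Grik4 had r = 0.70 (permutation p = 0.00442, adjusted p = 0.0331; rho = 0.77, permutation p = 0.00187, adjusted p = 0.0140), and r was 0.61 without these arrays (permutation p = 0.00693). Without control replicate 6 and FS replicate 3 the r of Grik4 was 0.60 and no longer passed (permutation p = 0.0645, adjusted p = 0.350), whereas that of Grik2 was -0.82 (permutation p = 0.00113). Within groups r was -0.79 in controls and -0.93 in FS rats for Grik2, and 0.61 and 0.76 for Grik4. In controls without replicate 6 it was -0.47 for Grik2 and 0.33 for Grik4. The share of all tested genes with a larger absolute r was not computed for the glutamatergic score.

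Grik1, Grik3 and Grik5 did not pass in any of their relations with the 4 marker scores. For the striatal score r was -0.33 for Grik1, -0.12 for Grik3 and -0.13 for Grik5, and the adjusted permutation p-values were 0.506, 0.826 and 0.826. Spearman's rho was -0.32 (adjusted permutation p = 0.616), -0.094 (0.881) and 0.00 (1.00). Without control replicate 6 and FS replicate 3 the r values were -0.14, 0.11 and 0.077. For Grik5 the sign differed by group, with r = 0.20 in controls (0.77 without replicate 6) and -0.41 in FS rats, and this difference was not tested. For Grik1 r was -0.34 in controls, 0.39 in controls without replicate 6 and -0.36 in FS rats. For Grik3 these values were -0.17, -0.12 and -0.035. The interneuron score was examined because Grik1 is known from interneurons. This score averages markers whose group differences went both ways. Of 11 tested, 7 had positive differences, with Gad1 (0.23) and Gad2 (0.39) among them, and 4 had negative ones. At an unadjusted p under 0.05 in limma there were 0 of the positive and 1 of the negative differences. The differences ran from -0.51 to 0.47, so the score is not a plain reading of interneurons. Its r with Grik1 was 0.40 (permutation p = 0.175, adjusted p = 0.478; rho = 0.16, permutation p = 0.548, adjusted p = 0.784), -0.063 in controls (0.38 without replicate 6) and 0.60 in FS rats. It was 0.057 without FS replicate 2 and control replicate 8, and 0.61 without control replicate 6 and FS replicate 3 (permutation p = 0.0575, adjusted p = 0.350), so its size rested on which arrays were kept. For Grik3 and this score r was -0.46 (permutation p = 0.0645, adjusted p = 0.277; rho = -0.54, permutation p = 0.0448, adjusted p = 0.192), -0.72 in controls (-0.81 without replicate 6) and -0.17 in FS rats. It was -0.33 without FS replicate 2 and control replicate 8, and -0.44 without control replicate 6 and FS replicate 3. For Grik2 r was 0.43 (permutation p = 0.119, adjusted p = 0.399; rho = 0.59, permutation p = 0.0177, adjusted p = 0.0885), 0.58 in controls (0.26 without replicate 6) and 0.32 in FS rats. It was 0.63 without FS replicate 2 and control replicate 8 (permutation p = 0.0111), and 0.27 without control replicate 6 and FS replicate 3 (permutation p = 0.441). The group difference of Grik1 with the striatal score as a covariate was -0.086 ± 0.052 (SE, adjusted p = 0.996 in limma).

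Genes of myelin and the oligodendrocytes that make it had higher means in FS rats. All 13 tested markers had positive differences, each at an unadjusted p under 0.05 and 0 after adjustment, and their score ranged from -0.63 to 0.20 in controls and from -0.051 to 0.36 in FS rats. None of the 5 genes passed against this score, with r between -0.33 (Grik4, adjusted permutation p = 0.399; rho = -0.31, adjusted permutation p = 0.550) and 0.27 (Grik2, adjusted permutation p = 0.545; rho = 0.26, adjusted permutation p = 0.616). For Grik4 r was -0.27 in controls (-0.018 without replicate 6) and -0.64 in FS rats. It was -0.55 without control replicates 7 and 2 (permutation p = 0.0159), and -0.18 without control replicate 6 and FS replicate 3. In a fit that included the myelin score, the group differences were 0.095 ± 0.15 (SE) for Grik2 and -0.034 ± 0.11 for Grik4. They were -0.087 ± 0.063 for Grik1, -0.069 ± 0.099 for Grik3 and -0.083 ± 0.079 for Grik5. FS rats also had the higher mean myelin score (0.20 against -0.20 in controls), so this fit divides a difference that both share. All 5 tested markers of oligodendrocyte precursors, all 6 of meningeal cells and all 5 of olfactory bulb and neuroblasts also had positive differences, 3, 0 and 1 of them at an unadjusted p under 0.05. All 7 markers of upper cortical layers had negative differences, 0 of them at that threshold. Over all probe sets, 3.65% were higher and 5.67% lower at that threshold. Other lists were mixed, with 4 positive and 3 negative differences for deep layers, 1 of the negative ones at that threshold. Counts of positive and negative differences were 5 and 1 for astrocytes, 4 and 4 for microglia, and 1 and 2 for endothelium. The part of these cells in the results was not tested.

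The genes with the most similar pattern, by Pearson's r over the 16 arrays with group means removed, differed for each subunit. Of the other 10422 genes, those nearest to Grik2 were S100pbp (0.94), the cell polarity gene Pard3 (0.93) and Ahi1 (0.93), which encodes a protein of the primary cilium. Nearest to Grik4 were Smg5 (0.92), which acts in nonsense-mediated RNA decay, Cpeb1 (0.92), a regulator of mRNA polyadenylation, and Tpd52 (0.91). Grik5 was followed by Gcn1 (0.92), the transcriptional repressor gene Cic (0.87) and the G protein gene Gna11 (0.86). Grik1 had Foxred2 (0.82), Reep5 (0.78) and Armc6 (0.78), and Grik3 had Mturn (0.76), the synaptic adhesion gene Sdk2 (0.76) and Vsig10 (0.75). No gene appeared for more than 1 subunit. These are the highest of many values and are given as a description.

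No gene among the partners of kainate receptors passed the adjusted threshold. Neto1 and Neto2 encode the auxiliary subunits that slow the closing of the channel. Neto2 ranged from 8.65 to 9.10 in controls and from 8.76 to 9.04 in FS rats, with a difference of 0.086 ± 0.064 (SE, adjusted p = 0.627 in limma). Neto1 ranged from 8.74 to 9.13 and from 8.78 to 9.11, with a difference of 0.064 ± 0.061 (SE, adjusted p = 0.697). For both genes the FS arrays lay within the range of the controls. C1ql3, which encodes a secreted synaptic organiser of excitatory neurons, had the largest difference of all partners, -0.44 ± 0.31 (SE, adjusted p = 0.617), and ranged from 7.62 to 9.42 in controls and from 7.00 to 9.24 in FS rats. Of the 6 auxiliary and extracellular partners 5 were tested, 3 with positive and 2 with negative differences, and the median was 0.044.

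The 8 scaffold and trafficking genes had 6 negative and 2 positive differences with a median of -0.045. Dlg4, the gene of the postsynaptic scaffold PSD-95, had a difference of -0.11 ± 0.062 (SE), Snap25, a SNARE protein gene, of -0.080 ± 0.049, and Pick1, which encodes a PDZ domain protein, of -0.053 ± 0.088. Of 9 genes for RNA editing and protein modification 6 were tested, and all 6 had positive differences, with a median of 0.057. The SUMO protease gene Senp1 stood at 0.073 ± 0.067 (SE), the RNA editing enzyme gene Adar at 0.071 ± 0.059 and the calcineurin gene Ppp3ca at 0.059 ± 0.065. The array does not report editing of the Grik1 and Grik2 transcripts. In these 3 lists 0 genes passed the adjusted threshold and 0 had an unadjusted p under 0.05 in limma.

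Among the other ionotropic glutamate receptor genes, 11 of 13 were tested, with 3 positive and 8 negative differences and a median of -0.021. The largest were those of the NMDA receptor genes Grin2a (-0.22 ± 0.18 SE), Grin2b (-0.13 ± 0.092) and Grin1 (-0.12 ± 0.073). None passed the adjusted or the unadjusted threshold in limma. The AMPA receptor genes Gria3 and Gria1 differed by -0.12 ± 0.12 and 0.11 ± 0.088 (SE). The difference between the kainate list and this list was not tested.

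**Figure D4:**
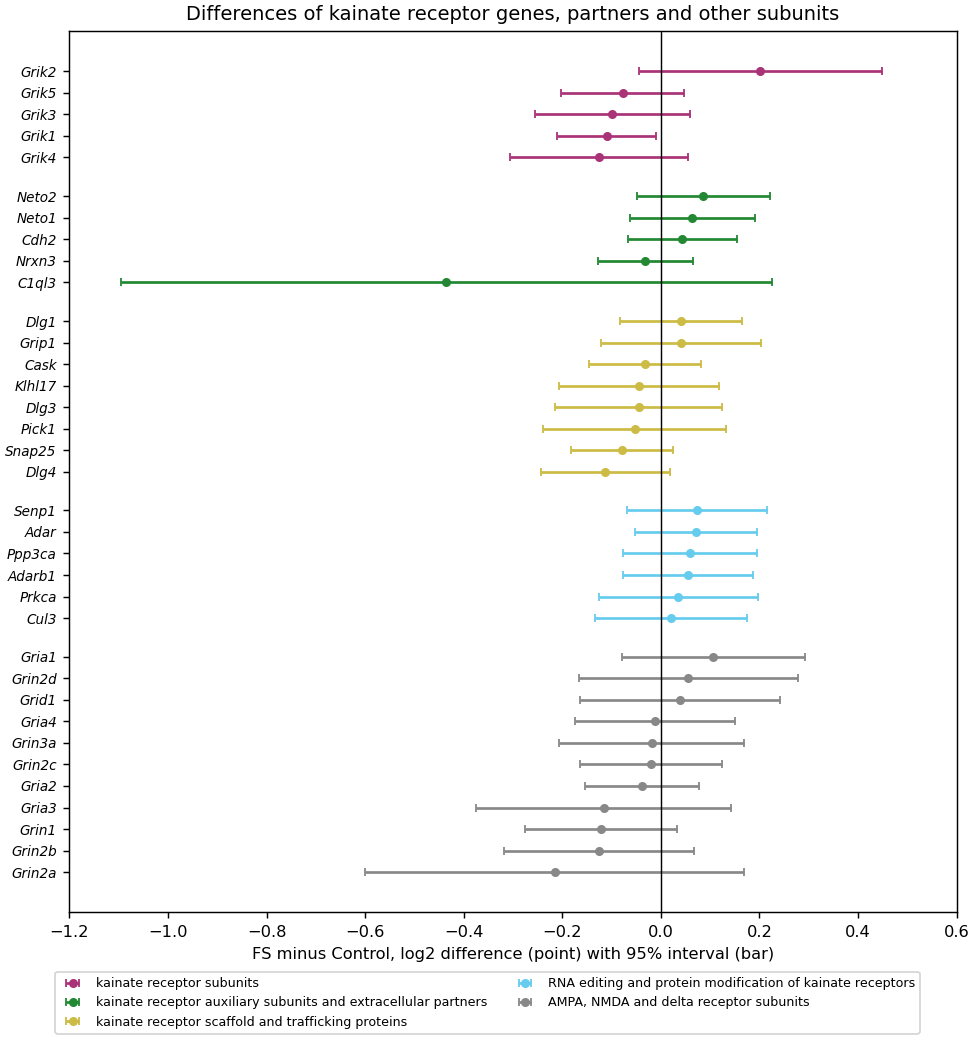
Difference between FS rats and controls on the log2 scale (point) with its 95% interval (bar, from limma, n = 8 per group) for the tested kainate receptor genes, 3 lists of partner genes and the other glutamate receptor subunits. Grik1 is the only gene whose interval, -0.21 to -0.0094, leaves out 0, before any adjustment.

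**Figure D5:**
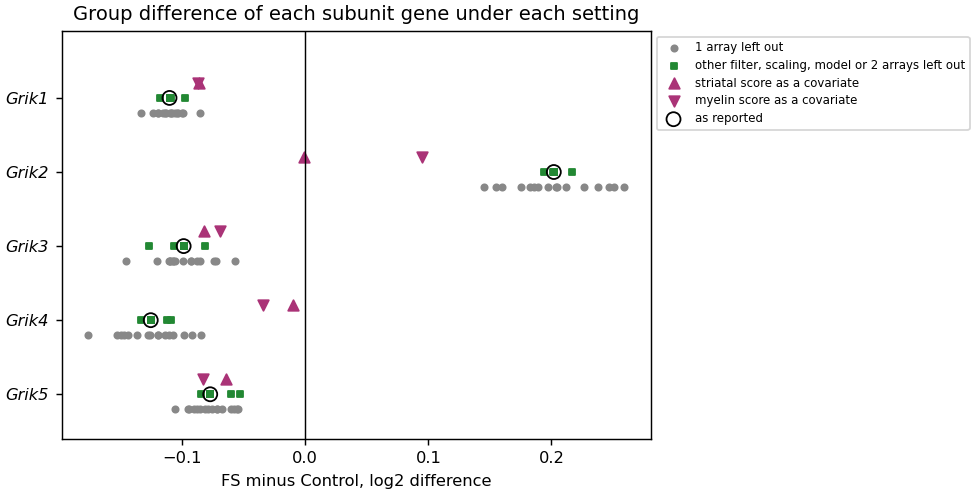
Group difference of each subunit gene on the log2 scale as reported (ring), with 1 array left out (grey), under other filters, scalings, models or with 2 arrays left out (green), and in fits that included a marker score, striatal or myelin (triangles). The Grik2 difference lies between 0.15 and 0.26 with 1 array left out and at -0.0013 with the striatal score as a covariate, and the Grik4 difference moves from -0.13 to -0.010.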

How the data were processed

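Deposited values were log2 expression values. The authors processed Affymetrix Rat Gene 1.0 ST arrays by RMA in oligo (1.58.0), which equalises the overall signal of the arrays and so hides a global change. The number of arrays limits the precision (median SE of a difference 0.073), and nothing beyond the labels gives separate litters or batches. Probe sets were named by the platform annotation, and 18644 of 29214 had 1 symbol. The authors' methods give limma and a filter of values above 4. Here the filter was read as a mean above 4 over the 16 arrays, and only probe sets with 1 symbol were tested, which is not a step of theirs (limma 3.58.1, R 4.3.3, group only), with Benjamini-Hochberg adjustment. Exact permutation used all 12870 assignments of 16 arrays. Correlations used values with group means removed, permuted within groups (numpy 2.4.6). On simulated data among 11352 probe sets, 83% of 100 genes shifted by 0.5 and 100% of 100 shifted by 1 were recovered. The simulated noise was drawn separately for each probe set, without the variation that genes share from array to array. Smaller shifts, such as the differences of the subunit genes (-0.13 to 0.20), were not simulated. With all 16 arrays no probe set passed the adjusted threshold, although differences ran from -0.92 to 1.42. The recovered shares therefore do not tell how often real differences of the simulated or smaller sizes, as in the subunit genes, would be found.

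Named genes are the 5 members, the 3 largest differences of each partner list, Neto1 and Neto2, the 3 genes most like each member, and the first 2 genes of marker lists. Gria1 and Gria3 were chosen after their values were seen. The members and lists were chosen with earlier results of these data known. Alternatives were other filters, centring, 1 probe set per gene, other variance models, the replicate number as a block, marker scores as covariates, exact permutation, and arrays left out. Replicate numbers were not taken as pairs. Upstream sequences are from RefSeq (GRCr8), and all 5 members matched by symbol.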

Additional observations from a re-analysis of the deposited data

Results flagged for a closer look

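Control replicate 6 stood far from the other 7 controls in its markers. Its striatal score was 1.76, the highest of the 16 arrays, and its glutamatergic score was -0.89, the lowest of the controls. Grik2 was 7.43 in this array, the highest of the controls, and Grik4 was 5.42, the lowest. Among FS rats, replicate 2 had an interneuron score of -0.39, far below the others, and the lowest Grik1 value of all 16 arrays, 4.35. Without FS replicate 2 the Grik1 difference was -0.086 (SE 0.045, adjusted p = 0.507 in limma). These 3 were found in 18 groups of values examined, where chance flags about 1 group in 20 if groups are independent. The striatal and glutamatergic flags are the same array, and all groups come from the same 16 arrays. The count therefore cannot be set against chance. No array stood apart in this way in any of the 5 kainate receptor genes.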

How the results depend on the processing

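None of the 5 differences passed the adjusted threshold under any alternative run (lowest adjusted p 0.275, for Grik1 without control replicate 6). Grik1, Grik3, Grik4 and Grik5 stayed negative under all of theirs. With 1 array left out, the ranges were -0.13 to -0.086 for Grik1, 0.15 to 0.26 for Grik2, -0.15 to -0.057 for Grik3, -0.18 to -0.085 for Grik4 and -0.11 to -0.054 for Grik5. Grik1 kept an unadjusted p under 0.05 in 10 of the 16 such fits and lost it with the replicate block and with either marker score included. It was also lost with control replicate 6 and FS replicate 3 left out together. With 1 array left out, Grik2 had an unadjusted limma p under 0.05 in 2 fits (lowest 0.0331). Grik3 had it in 1 (0.0421), Grik4 in 1 (0.0367) and Grik5 in 0. Grik2 turned to -0.0013 when the striatal score was included. The cause was not tested. Grik1 had no value with a mean above 5 as the filter, and a mean over probe sets was not run because each gene had 1.

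The count of probe sets at an unadjusted p under 0.05, 1058, was 470 in the fit that included the striatal score, 279 in that with the myelin score, and 648 to 1870 with 1 array left out (1870 without control replicate 6, 648 and 665 without FS replicates 3 and 6). The adjusted count of 0 was 0 to 1 with 1 array left out, when Apold1 passed without FS replicate 2. It was 1, Hhip, without control replicate 6 and FS replicate 3. Apold1 and Hhip were named after their values were seen.

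Replicate numbers were not taken as pairs, and the values do not settle whether they are. Of 8 same-numbered pairs, 4 had deviations correlated above 0.1, with r from -0.31 (number 3) to 0.49 (number 7). Of 8 controls, 1 correlated best with its own number. The counts that chance would give were not computed. With the replicate block the differences had the same sizes, the unadjusted p of Grik1 went from 0.0338 to 0.0507, and the fits gave adjusted p-values of 0.458 (Grik1), 0.498 (Grik2), 0.585 (Grik3), 0.547 (Grik4) and 0.546 (Grik5), and 1242 probe sets had an unadjusted p under 0.05.

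Without control replicate 6 and FS replicate 3, correlations near 0 changed sign: Grik1 with Grik3 (-0.0066), Grik3 with Grik5 (-0.077), the striatal score with Grik3 (0.11) and Grik5 (0.077), the glutamatergic score with Grik3 (-0.26) and the interneuron score with Grik5 (0.00066). Those of Grik4 with the striatal (-0.69) and glutamatergic (0.60) scores no longer passed, and those of Grik2 did.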
